A study of Mus musculus with 18 samples.

Results

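The 33 genes described here carry sphingolipid metabolism: de novo synthesis (16 genes), conversion of ceramide (4), sphingomyelinases and ceramidases (8) and sphingosine phosphate (5). They were chosen by gene symbol from the 45706 genes of the deposited table. Sphingolipids are built on a sphingoid base that serine palmitoyltransferase makes from serine and palmitoyl-CoA. Ceramide synthases attach an acyl chain to that base, and ceramide is then turned into sphingomyelin, glucosylceramide or ceramide phosphate, or cut back to sphingosine. Sphingosine is phosphorylated to a signalling lipid that acts on its own receptors, and a lyase removes that lipid for good. In mouse fat, ceramide is known for its ties to insulin resistance and to reduced heat production.

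The libraries came from BMC, 1 line of immortalised mouse brown preadipocytes that had been differentiated into brown adipocytes, cells that burn lipid to make heat. By the labels, 6 libraries were not induced (0 h), and 6 each were taken 4 h and 24 h after 1 µM norepinephrine, the sympathetic transmitter that starts lipolysis. The titles number the libraries of each time 1 to 6, and all 18 carry the batch label 1. All groups share the line and the differentiation: insulin at 20 nM, triiodothyronine at 1 nM, dexamethasone at 1 µM, indomethacin at 0.125 mM and isobutylmethylxanthine at 0.5 mM, with sampling on day 7. The labels do not say that replicates were separate cultures, and p-values therefore rest on the spread among the libraries, part of which may be technical.

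Expected counts totalled 7010742 to 26501223 per library, and a share of counts below is precise only as far as these depths allow. The library of 24 h replicate 5 stood apart: it had the lowest total, and transcripts that collect ribosomal RNA reads took 41.5% of it, against 6.78% to 10.6% of the others. An earlier analysis of all genes in these data had shown that the replicate numbers separate the libraries into 3 sets of 6: numbers 3 and 6 (set 3+6), numbers 2 and 5 (set 2+5) and numbers 1 and 4 (set 1+4). The set accounted for a median of 84.1% of the variance of a sphingolipid gene's log2 CPM (counts scaled to a common library total), against 62.7% over all 14788 genes tested. The labelled time accounted for 2.20% and 3.78%. The sphingolipid genes and all genes were not matched for level, and nothing is read from the gaps between their shares. The labels give the sets no condition, so nothing below ties a difference between sets to norepinephrine. The share of the labelled time was small, and whether the time labels hold was not tested.

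Markers of adipocytes were abundant in every library, with a summed level of 6959 to 8311 CPM in set 3+6, 8846 to 10873 CPM in set 2+5 and 9659 to 10173 CPM in set 1+4. The level of Ucp1, the uncoupling protein that defines thermogenic fat, was low, at 1.81 ± 0.534 CPM in set 3+6, 10.5 ± 0.590 CPM in set 2+5 and 15.8 ± 1.97 CPM in set 1+4 (SD, n = 6 each). Adrb3, the adrenergic receptor of fat cells, ran otherwise, at 93.3 ± 6.91, 26.7 ± 2.83 and 43.0 ± 1.47 CPM in the same order. The 8 brown adipocyte markers summed to 252 to 273 CPM in set 3+6, 180 to 205 CPM in set 2+5 and 240 to 259 CPM in set 1+4. Of the 7 tested, 1 was higher and 4 lower in set 3+6 than in set 1+4, and 0 were higher and 5 lower in set 2+5 than in set 1+4. For set 3+6 against set 2+5, 4 were higher and 2 lower. The 8 adipocyte markers split in both directions, with 3 higher and 4 lower in set 3+6 than in set 1+4, and 5 higher and 3 lower in set 2+5 than in set 1+4. Among these, Plin1, which coats the lipid droplet, had a log2 fold change of -1.81 and Pnpla2, a triglyceride lipase, one of 1.16 for set 2+5 against set 1+4. The 10 preadipocyte and fibroblast markers summed to 1067 to 1368 CPM in set 3+6, 650 to 1011 CPM in set 2+5 and 521 to 618 CPM in set 1+4. Most of each sum was Col1a1, at means of 869, 551 and 434 CPM in the same order. Of the 7 preadipocyte and fibroblast markers tested, 7 were higher in set 3+6 than in set 1+4, and 6 were higher in set 2+5 than in set 1+4. Of all genes tested, 30.2% were higher and 29.5% lower for set 3+6 against set 1+4. For set 2+5 against set 1+4 these shares were 29.6% and 29.9%, and for set 3+6 against set 2+5 28.6% and 28.5%. The 6 muscle markers, mostly from Acta2, summed to 58.9 to 81.6, 28.0 to 53.0 and 23.1 to 26.6 CPM in sets 3+6, 2+5 and 1+4. Of the 3 tested, Acta2 and Tagln were higher in each comparison of sets and 0 were lower. Myh11 was not called, with log2 fold changes of -0.39 (set 3+6 against 1+4), -0.03 (2+5 against 1+4) and -0.36 (3+6 against 2+5). Macrophage markers reached at most 5.55 CPM with Adgre1 at 0, and endothelial markers at most 1.80 CPM with Cdh5 at 0. Markers of preadipocytes, adipocytes and brown adipocytes, and the muscle markers Acta2 and Tagln, thus differed between the sets. Those of adipocytes and brown adipocytes did so in both directions. The part of these markers in the results on sets below was not tested. In bulk RNA, fewer cells of a type and less RNA per cell cannot be told apart.

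Of the 33 genes, 30 passed the filter on low counts. Degs2, a hydroxylase that makes phytoceramide, Sgpp2, a sphingosine phosphate phosphatase, and Sptssb, a small subunit of serine palmitoyltransferase, did not: they had 0 to 2, 0 to 4 and 0 to 1 counts per library. Per kilobase of exon, the highest mean level was that of Ormdl3, at 54.3 CPM per kb, followed by Cers2 at 41.3, Sgpl1 at 30.1 and Degs1 at 29.7 CPM per kb. Ormdl3 belongs to the proteins that hold serine palmitoyltransferase in check, Cers2 makes very-long-chain ceramides, Sgpl1 is the sphingosine phosphate lyase, and Degs1 sets the double bond that turns dihydroceramide into ceramide. The lowest levels among the 30 were those of Sphk1, a sphingosine kinase, at 0.175 CPM per kb, and Cers4, a ceramide synthase, at 0.410 CPM per kb.

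Differences between sets were called in each of the 4 roles, while the 2 kinases and the phosphatase of sphingosine phosphate that were tested passed in no comparison. Set 3+6 against set 1+4 had 8 genes higher, 10 lower and 12 not called by edgeR's quasi-likelihood test with Benjamini-Hochberg adjustment over all genes. Of all genes tested, 30.2% were higher and 29.5% lower in that comparison. Set 2+5 against set 1+4 had 9 higher, 11 lower and 10 not called, where 29.6% of all genes were higher and 29.9% lower. Set 3+6 against set 2+5 had 9 higher, 10 lower and 11 not called, where 28.6% of all genes were higher and 28.5% lower. The shares called, 60%, 66.7% and 63.3% of the 30, lie near those of all genes (59.7%, 59.5% and 57.1%), so the count alone does not set the sphingolipid genes apart. The median absolute log2 fold change was 0.20, 0.40 and 0.24, against 0.24, 0.24 and 0.23 over all genes. The 3 comparisons share libraries with each other. Without the library of 24 h replicate 5, the genes called were 18, 21 and 20 in the same order. Scaled by library totals alone, the splits were 6 higher and 4 lower, 5 higher and 9 lower, and 9 higher and 3 lower. That scaling shifted the median log2 fold change of all genes to 0.17, -0.09 and 0.25.

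**Figure D1:**
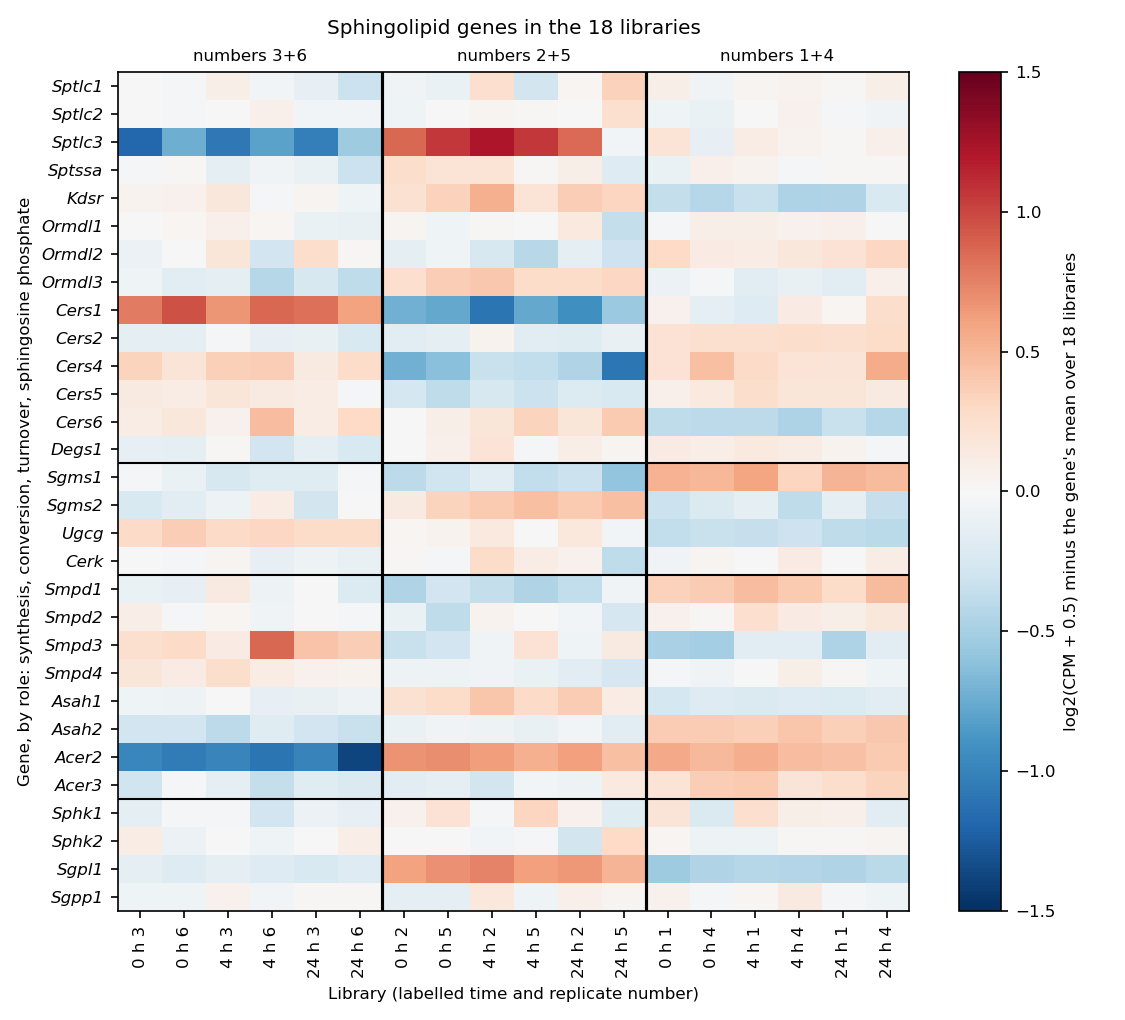
Heat map of log2(CPM + 0.5) of the 30 genes tested, each minus its own mean over the 18 libraries, with libraries as columns by set of replicate numbers and genes as rows by role. Colour changes at the set borders for Acer2, Sgpl1, Cers1 and, apart from 24 h replicate 5, Sptlc3, and stays pale across all columns for Sptlc1, Sptlc2, Ormdl1, Sgpp1 and Sphk2.

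A log2 fold change beyond 1 in either direction between any pair of sets was found for 4 genes, each in a different enzyme family. Their upstream sequences are shown because these genes carry the widest differences. The windows are from RefSeq on the build GRCm38.p6, run 5′ to 3′ on the gene's strand from 250 to 21 bases before the annotated start, and hold no capitals because none of the 11 motifs searched for below occurs in them. Acer2 lies at chr4:86874164-86874393 (+), Sgpl1 at chr10:61147705-61147934 (-), Sptlc3 at chr2:139493663-139493892 (+) and Cers1 at chr8:70315525-70315754 (+).
Acer2: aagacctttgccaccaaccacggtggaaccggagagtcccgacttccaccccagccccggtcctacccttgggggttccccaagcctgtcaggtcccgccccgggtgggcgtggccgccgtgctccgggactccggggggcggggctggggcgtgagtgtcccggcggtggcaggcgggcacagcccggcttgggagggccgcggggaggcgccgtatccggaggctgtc
Sgpl1: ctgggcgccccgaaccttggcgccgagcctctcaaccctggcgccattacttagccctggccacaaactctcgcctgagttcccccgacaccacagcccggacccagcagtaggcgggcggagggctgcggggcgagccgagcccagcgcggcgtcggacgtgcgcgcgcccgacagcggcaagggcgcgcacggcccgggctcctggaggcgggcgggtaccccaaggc
Sptlc3: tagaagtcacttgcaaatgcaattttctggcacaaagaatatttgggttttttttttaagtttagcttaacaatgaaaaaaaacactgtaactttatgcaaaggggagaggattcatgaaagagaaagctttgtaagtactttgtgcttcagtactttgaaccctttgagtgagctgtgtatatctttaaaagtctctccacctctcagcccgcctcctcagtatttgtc
Cers1: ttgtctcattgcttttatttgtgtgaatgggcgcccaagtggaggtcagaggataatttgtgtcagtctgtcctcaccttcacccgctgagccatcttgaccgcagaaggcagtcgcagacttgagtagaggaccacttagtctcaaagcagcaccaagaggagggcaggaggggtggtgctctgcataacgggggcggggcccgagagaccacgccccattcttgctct
The windows of Acer2 and Sgpl1 are rich in G and C (74.3% and 74.8%), that of Cers1 is intermediate (55.7%) and that of Sptlc3 is rich in A and T (36.5% G and C).

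Acer2 encodes an alkaline ceramidase of the Golgi, which frees sphingosine from ceramide. Its gene spans chr4:86874396-86934822 on mm10. Its level was 14.3, 18.4 and 19.0 CPM in set 3+6 (lowest, median and highest of 6 libraries, as for all such triplets below), 52.0, 58.5 and 62.0 CPM in set 2+5, and 50.04, 53.0 and 56.4 CPM in set 1+4. All libraries of set 3+6 lay far below all others, and the ranges of sets 2+5 and 1+4 overlapped. Set 3+6 differed from set 1+4 by a log2 fold change of -1.59 ± 0.05 (SE; adjusted p from edgeR = 2.69e-20) and from set 2+5 by -1.71 ± 0.05 (adjusted p from edgeR = 2.19e-20). Set 2+5 exceeded set 1+4 by only 0.13 (adjusted p from edgeR = 0.0213). With the counts of each replicate number summed over the times, which leaves 2 numbers a set, the adjusted p from edgeR for that small difference was 0.0537. That Acer2 call was also lost in the fits lacking the library of 0 h replicate 4 (adjusted p from edgeR = 0.0635) or that of 24 h replicate 2 (adjusted p from edgeR = 0.0838).

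Sgpl1, the lyase that removes sphingosine phosphate irreversibly, spans chr10:61098642-61147703. Its level was 149, 153 and 160 CPM in set 3+6, 248, 271 and 293 CPM in set 2+5, and 121, 128 and 132 CPM in set 1+4. No ranges overlapped, and set 2+5 was far above both others. For Sgpl1 the log2 fold change was 1.09 ± 0.04 for set 2+5 against set 1+4 (SE; adjusted p from edgeR = 1.46e-19), 0.27 ± 0.04 for set 3+6 against set 1+4 (adjusted p from edgeR = 2.66e-07) and -0.82 ± 0.04 for set 3+6 against set 2+5 (adjusted p from edgeR = 9.94e-17).

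Sptlc3 encodes an alternative catalytic subunit of serine palmitoyltransferase that favours shorter sphingoid bases, and spans chr2:139493913-139637674. It was a low gene, with 0.487, 0.687 and 1.04 CPM in set 3+6, 1.66, 3.83 and 4.68 CPM in set 2+5, and 1.54, 1.83 and 2.06 CPM in set 1+4. Set 3+6 lay below all other libraries, while the lowest library of set 2+5, that of 24 h replicate 5 with its many ribosomal reads, lay within the range of set 1+4. The log2 fold change was -1.33 ± 0.19 for set 3+6 against set 1+4 (SE; adjusted p from edgeR = 1.19e-06), 1.06 ± 0.16 for set 2+5 against set 1+4 (adjusted p from edgeR = 2.40e-06) and -2.39 ± 0.18 for set 3+6 against set 2+5 (adjusted p from edgeR = 1.13e-11). Without 24 h replicate 5 they were -1.35, 1.12 and -2.46. Between single numbers, the log2 fold change of Sptlc3 was -1.79 for number 3 against 1 and -0.88 for number 6 against 4, and the interaction of set with number did not pass (adjusted p from edgeR = 0.424).

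Cers1 encodes the ceramide synthase known from brain and muscle, and spans chr8:70315775-70331592. Its level was 2.84, 3.33 and 3.77 CPM in set 3+6, 0.529, 0.792 and 0.995 CPM in set 2+5, and 1.43, 1.78 and 2.14 CPM in set 1+4. The 3 ranges were separate, in the reverse order of Sptlc3. Fold changes of Cers1 on the log2 scale were 0.92 ± 0.13 for set 3+6 against set 1+4 (SE; adjusted p from edgeR = 8.84e-07), -1.21 ± 0.17 for set 2+5 against set 1+4 (adjusted p from edgeR = 9.17e-07) and 2.13 ± 0.16 for set 3+6 against set 2+5 (adjusted p from edgeR = 7.39e-12). Cers1 shares 42.5% of its exon bases with Gdf1 on the same strand, so its counts may hold reads of that gene and are uncertain.

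**Figure D2:**
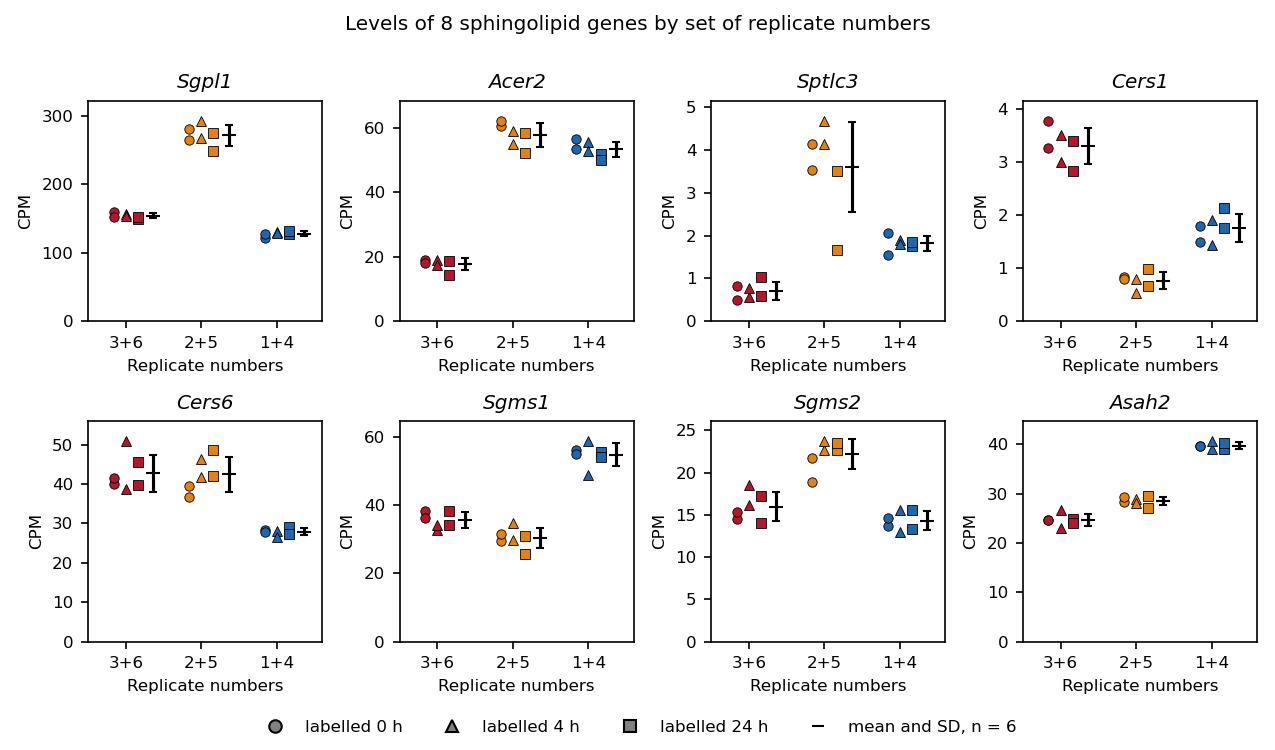
CPM of 8 genes in each library, by set of replicate numbers, with the labelled time as the symbol and the mean and SD of 6 libraries as the bar beside each set. All 6 libraries of set 3+6 lie at 19.0 CPM or less for Acer2, and all 6 of set 2+5 at 248 CPM or more for Sgpl1, whatever the labelled time.

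In de novo synthesis, 3 genes were higher and 5 lower in set 3+6 than in set 1+4, 4 higher and 5 lower in set 2+5 than in set 1+4, and 4 higher and 5 lower in set 3+6 than in set 2+5, of 14 tested. The shares called, 57.1%, 64.3% and 64.3%, were near the 59.7%, 59.5% and 57.1% of all genes. Sptlc1 and Sptlc2, the common core of serine palmitoyltransferase, were called in no comparison. Sptlc2 averaged 42.6 ± 1.34 CPM in set 3+6, 44.0 ± 3.34 CPM in set 2+5 and 41.8 ± 1.65 CPM in set 1+4 (SD, n = 6 each). The intervals of its log2 fold changes ran from -0.05 to 0.10 for set 3+6 against set 1+4 and from -0.03 to 0.13 for set 2+5 against set 1+4. The share of Sptlc3 among the 2 alternative catalytic subunits, Sptlc2 and Sptlc3, per kilobase was 4.57% ± 1.31 in set 3+6, 19.0% ± 5.29 in set 2+5 and 11.03% ± 0.920 in set 1+4 (SD, n = 6 each). Sptssa, the small subunit that activates the enzyme, was lower in set 3+6 than in set 2+5 by a log2 fold change of -0.24 ± 0.06 (SE; adjusted p from edgeR = 0.000845). Scaled by library totals, that Sptssa value turned to 0.0202.

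Kdsr, the reductase that follows serine palmitoyltransferase, had 36.1, 39.1 and 42.7 CPM in set 3+6, 43.8, 47.8 and 55.1 CPM in set 2+5, and 27.4, 28.6 and 32.3 CPM in set 1+4. The 3 ranges did not overlap. Kdsr had a log2 fold change of 0.44 ± 0.05 for set 3+6 against set 1+4 (SE; adjusted p from edgeR = 5.43e-08) and 0.73 ± 0.05 for set 2+5 against set 1+4 (adjusted p from edgeR = 4.68e-12).

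Of the ORMDL genes, which encode inhibitors of serine palmitoyltransferase in the endoplasmic reticulum, Ormdl3 was the most abundant per kilobase. Its level was 86.9, 102 and 112 CPM in set 3+6, 139, 143 and 155 CPM in set 2+5, and 104, 109 and 123 CPM in set 1+4. Set 2+5 lay above every other library, and sets 3+6 and 1+4 overlapped. On the log2 scale the fold change was 0.39 ± 0.05 for set 2+5 against set 1+4 (SE; adjusted p from edgeR = 5.01e-07), -0.15 ± 0.05 for set 3+6 against set 1+4 (adjusted p from edgeR = 0.0161) and -0.54 ± 0.05 for set 3+6 against set 2+5 (adjusted p from edgeR = 3.31e-09). With library totals in place of TMM scaling the Ormdl3 value for set 3+6 against set 1+4 turned to 0.00671. For set 2+5 against set 1+4 the Ormdl3 value was then 0.28 and did not pass (adjusted p from edgeR = 0.232). Nor did the -0.27 for set 3+6 against set 2+5 (adjusted p from edgeR = 0.201). With TMM scaling, set 3+6 against set 1+4 also lost its call without 4 h replicate 6, 24 h replicate 4 or 24 h replicate 6 (adjusted p from edgeR = 0.0544, 0.0508 and 0.0631). Ormdl2 ran the other way in set 2+5, with a log2 fold change of -0.41 ± 0.07 against set 1+4 (SE; adjusted p from edgeR = 3.38e-05), but 66.7% of its exon bases lie opposite Dnajc14. The strand setting of the counting is not given in the sources used here, so reads of the 2 genes cannot be told apart. Ormdl1 was called in no comparison.

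Ormdl3 was the one gene of the 31 with a RefSeq promoter entry whose 250 bases upstream held a full cAMP response element, the site of the factors that norepinephrine activates through cAMP. It is shown for that reason, in capitals, at chr11:98587255-98587284 (-) of GRCm38.p6, with its first base at position -28 from the annotated start. It lies upstream of the RefSeq start but inside the span that GENCODE M21 on mm10 gives Ormdl3, chr11:98581256-98587368.
Ormdl3: gcgcgtggtagTGACGTCAccgccccggct
The element (TGACGTCA, the same on both strands) was found in 1.55% of 32851 promoter windows of that length. Its core TGACG, on either strand and contained in the full element, was found in 10 of the 46 windows of the 31 genes (21.7%), against 17.8% of all windows. The 9 genes were Acer3, Cers6, Ormdl3, Sgms1, Sgpp2, Sphk1, Sphk2, Sptlc1 and Sptssa. Of 9 other motifs searched on both strands, the E-box CACGTG occurred in 8 of the 46 windows (17.4%, from 7 genes) and in 6.02% of all windows, and the CCAAT box (CCAAT) in 15 of the 46 (32.6%, from 13 genes) and in 33.8% of all windows. The XBP1 core GCCACGT, which can share bases with the E-box, occurred in 2 of the 46 windows (4.35%), those of Cers6 and Sgms2, and in 2.02% of all windows. No gene of the 31 held the C/EBP palindrome TTGCGCAA, the AAAGGTCA element of NR4A receptors, the sterol element TCACNCCAC, the PPAR direct repeat, the palindromic glucocorticoid element or the CLEAR element of lysosomal genes, which contains the E-box. Their shares of all windows were 0.164%, 1.34%, 1.05%, 0.0335%, 0.00913% and 0.240% in that order. Some genes have several windows, which can share bases. A match describes letters in a window and is not a measured site.

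Among the ceramide synthases, Cers2 was lower and Cers6, which makes palmitoyl ceramide, higher in both other sets than in set 1+4. Cers6 had 38.8, 40.7 and 50.9 CPM in set 3+6, 36.7, 41.9 and 48.7 CPM in set 2+5, and 26.6, 28.0 and 29.1 CPM in set 1+4. Every library of sets 3+6 and 2+5 lay above set 1+4. Cers6 had a log2 fold change of 0.60 ± 0.06 for set 3+6 against set 1+4 (SE; adjusted p from edgeR = 2.40e-09) and 0.58 ± 0.06 for set 2+5 against set 1+4 (adjusted p from edgeR = 9.54e-09). Between sets 3+6 and 2+5 the interval of the Cers6 difference was -0.10 to 0.14.

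Cers2 had 129, 137 and 148 CPM in set 3+6, 133, 136 and 157 CPM in set 2+5, and 175, 178 and 183 CPM in set 1+4, with set 1+4 above all other libraries. Its log2 fold change was -0.37 ± 0.04 for set 3+6 against set 1+4 (SE; adjusted p from edgeR = 1.32e-09) and -0.36 ± 0.04 for set 2+5 against set 1+4 (adjusted p from edgeR = 3.37e-09). Cers5, which also makes palmitoyl ceramide, did not follow Cers6. It had 58.1, 64.4 and 67.1 CPM in set 3+6, 45.2, 49.6 and 51.2 CPM in set 2+5, and 62.5, 66.2 and 71.3 CPM in set 1+4, so that set 2+5 lay below all other libraries. The log2 fold change of Cers5 was -0.45 ± 0.04 for set 2+5 against set 1+4 (SE; adjusted p from edgeR = 3.21e-10) and 0.39 ± 0.04 for set 3+6 against set 2+5 (adjusted p from edgeR = 4.52e-09). Cers4, with 5.29, 6.03 and 6.32 CPM in set 3+6, 1.99, 3.15 and 3.71 CPM in set 2+5, and 5.54, 5.78 and 7.30 CPM in set 1+4, was likewise lowest in set 2+5. Its log2 fold change was -0.93 ± 0.11 for set 2+5 against set 1+4 (SE; adjusted p from edgeR = 2.19e-08).

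Per kilobase, Cers2 made up 60.6% ± 0.821 of the ceramide synthase level in set 3+6, 66.4% ± 1.56 in set 2+5 and 67.9% ± 0.769 in set 1+4 (SD, n = 6 each). Cers6 made up 7.80% ± 0.952, 8.43% ± 0.859 and 4.40% ± 0.176 in the same order, and Cers1 1.68% ± 0.168, 0.428% ± 0.0930 and 0.774% ± 0.114. Cers2 was the main synthase transcript in each set. Degs1 was lower in set 3+6, at 69.2 ± 5.07 CPM, than in set 1+4, at 81.3 ± 3.598 CPM (SD, n = 6 each; log2 fold change -0.23 ± 0.04 SE; adjusted p from edgeR = 4.42e-05). Its difference from set 2+5 was -0.21 ± 0.04 (SE; adjusted p from edgeR = 0.000215). Scaled by library totals, the Degs1 value against set 2+5 turned to 0.0530, and that against set 1+4 was -0.07 and did not pass (adjusted p from edgeR = 0.796).

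**Figure D3:**
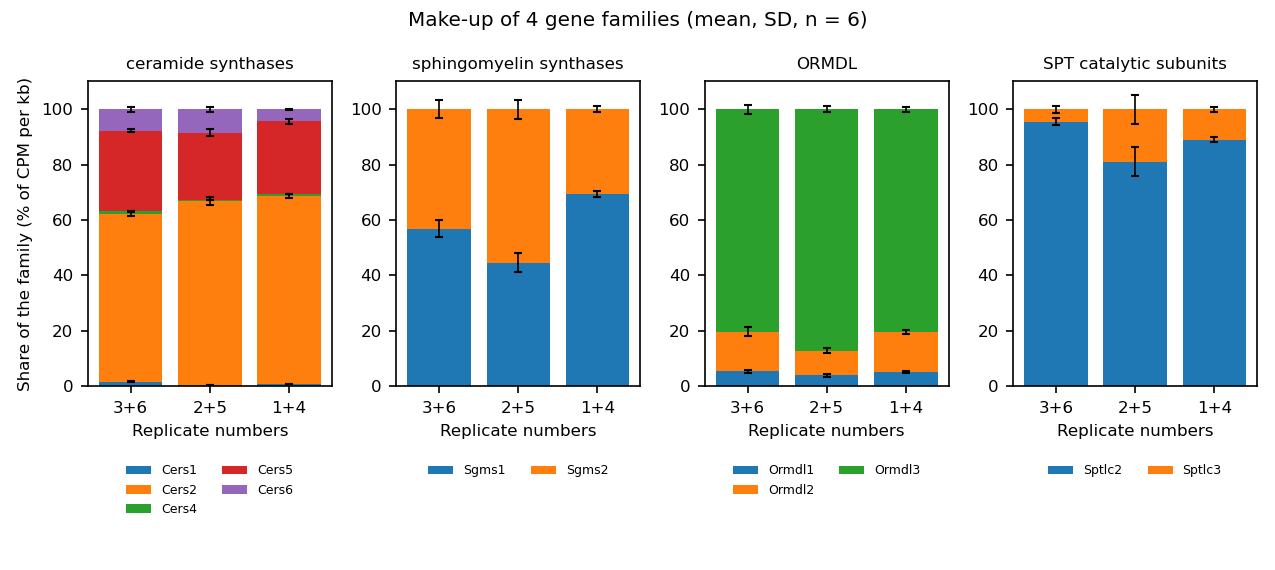
Share of each member in its family's summed CPM per kilobase, for 4 families in the 3 sets of replicate numbers, as stacked means with SD over 6 libraries. The sphingomyelin synthase share of Sgms1 was 56.9% in set 3+6, 44.7% in set 2+5 and 69.3% in set 1+4.

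Of the 4 genes that convert ceramide, 2 were called for set 3+6 against set 1+4, 3 for set 2+5 against set 1+4 and 3 for set 3+6 against set 2+5, where 59.7%, 59.5% and 57.1% of all genes were. Cerk, the ceramide kinase, was called in no comparison. Sgms1, the Golgi sphingomyelin synthase, had 32.7, 35.2 and 38.3 CPM in set 3+6, 25.5, 30.4 and 34.8 CPM in set 2+5, and 48.7, 55.3 and 58.6 CPM in set 1+4. Both other sets lay below every library of set 1+4 and overlapped each other. Sgms1 had a log2 fold change of -0.62 ± 0.05 for set 3+6 against set 1+4 (SE; adjusted p from edgeR = 2.35e-11) and -0.83 ± 0.05 for set 2+5 against set 1+4 (adjusted p from edgeR = 2.10e-13).

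Sgms2, the sphingomyelin synthase of the plasma membrane, had 14.1, 15.8 and 18.5 CPM in set 3+6, 18.9, 22.7 and 23.7 CPM in set 2+5, and 13.02, 14.2 and 15.6 CPM in set 1+4. Set 2+5 lay above all other libraries. The log2 fold change of Sgms2 was 0.61 ± 0.06 for set 2+5 against set 1+4 (SE; adjusted p from edgeR = 4.48e-09), -0.48 ± 0.06 for set 3+6 against set 2+5 (adjusted p from edgeR = 3.26e-07) and 0.14 ± 0.06 for set 3+6 against set 1+4 (adjusted p from edgeR = 0.0670). Per kilobase, Sgms1 made up 56.9% ± 3.17 of the sphingomyelin synthase level in set 3+6, 44.7% ± 3.37 in set 2+5 and 69.3% ± 1.17 in set 1+4 (SD, n = 6 each). The ranges of that share did not overlap, with Sgms2 the higher per kilobase in set 2+5 and Sgms1 in the others. That order depends on the merged exon lengths used, 10546 bases for Sgms1 and 6227 for Sgms2. In CPM, Sgms1 was above Sgms2 in every set, at 30.3 ± 3.02 against 22.2 ± 1.78 CPM in set 2+5 (SD, n = 6 each).

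Ugcg, the glucosylceramide synthase that opens the glycosphingolipid branch, had 51.5, 52.4 and 55.2 CPM in set 3+6, 41.4, 44.0 and 47.8 CPM in set 2+5, and 32.0, 33.1 and 34.2 CPM in set 1+4. The 3 ranges did not overlap. Its log2 fold change was 0.67 ± 0.04 for set 3+6 against set 1+4 (SE; adjusted p from edgeR = 1.60e-14), 0.43 ± 0.04 for set 2+5 against set 1+4 (adjusted p from edgeR = 3.26e-10) and 0.23 ± 0.04 for set 3+6 against set 2+5 (adjusted p from edgeR = 8.97e-06).

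Among sphingomyelinases and ceramidases, 3 genes were higher and 4 lower in set 3+6 than in set 1+4, 2 higher and 5 lower in set 2+5 than in set 1+4, and 3 higher and 3 lower in set 3+6 than in set 2+5, of 8 tested. These calls make up 87.5%, 87.5% and 75% of the 8, where 59.7%, 59.5% and 57.1% of all genes were called, and with so few genes nothing is read from that. Smpd1, the lysosomal acid sphingomyelinase, had 30.8, 33.4 and 39.1 CPM in set 3+6, 25.8, 27.6 and 34.1 CPM in set 2+5, and 43.0, 46.5 and 49.5 CPM in set 1+4. Set 1+4 lay above all other libraries, and the log2 fold change was -0.44 ± 0.05 for set 3+6 (SE; adjusted p from edgeR = 3.33e-08) and -0.75 ± 0.06 for set 2+5 (adjusted p from edgeR = 5.66e-12), each against set 1+4. Smpd3, a neutral sphingomyelinase of low level, went the other way. It had 2.95, 3.49 and 5.25 CPM in set 3+6, 2.01, 2.55 and 3.17 CPM in set 2+5, and 1.73, 2.05 and 2.34 CPM in set 1+4. Set 3+6 lay above set 1+4 without overlap, and its log2 fold change was 0.85 ± 0.13 (SE; adjusted p from edgeR = 2.05e-06).

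Smpd4, a neutral sphingomyelinase of the endoplasmic reticulum and nuclear envelope, differed little, with log2 fold changes of 0.14, -0.11 and 0.25 for set 3+6 against 1+4, set 2+5 against 1+4 and set 3+6 against 2+5. With counts summed per replicate number, the -0.11 of Smpd4 for set 2+5 against set 1+4 no longer passed (adjusted p from edgeR = 0.0599). Nor did it pass without 4 h replicate 5 or without 24 h replicate 1 (adjusted p from edgeR = 0.0617 and 0.0815). Smpd2, another neutral sphingomyelinase, was lower in set 2+5 than in set 1+4 by -0.23 ± 0.06 (SE; adjusted p from edgeR = 0.00241), and 20.3% of its exon bases lie opposite Mical1.

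The 3 other ceramidases did not move as one. Asah1, the lysosomal acid ceramidase, had 58.6, 60.7 and 64.1 CPM in set 3+6, 69.3, 77.7 and 85.1 CPM in set 2+5, and 53.2, 55.4 and 56.8 CPM in set 1+4. No ranges overlapped, and the log2 fold change of Asah1 was 0.51 ± 0.04 for set 2+5 against set 1+4 (SE; adjusted p from edgeR = 6.72e-12) and 0.14 ± 0.04 for set 3+6 against set 1+4 (adjusted p from edgeR = 0.00268). Asah2, the neutral ceramidase, had 23.0, 24.7 and 26.8 CPM in set 3+6, 27.2, 28.6 and 29.5 CPM in set 2+5, and 39.0, 39.7 and 40.6 CPM in set 1+4. Its ranges did not overlap either, with set 1+4 on top, and its log2 fold change was -0.69 ± 0.04 for set 3+6 (SE; adjusted p from edgeR = 7.44e-15) and -0.47 ± 0.04 for set 2+5 (adjusted p from edgeR = 5.84e-11), each against set 1+4. Acer3, another alkaline ceramidase, was also highest in set 1+4, with log2 fold changes of -0.50 ± 0.07 for set 3+6 (SE; adjusted p from edgeR = 4.15e-07) and -0.42 ± 0.07 for set 2+5 (adjusted p from edgeR = 1.13e-05). In set 2+5, then, the acid ceramidase transcript stood above set 1+4 while the neutral one and that of Acer3 stood below it.

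Among the genes of sphingosine phosphate, Sgpl1 was called in every comparison of sets and the other 3 tested in none. The share called was thus 25% of the 4 tested in each, where 59.7%, 59.5% and 57.1% of all genes were called. With so few genes nothing is read from that. Sphk1 and Sphk2 make sphingosine phosphate and Sgpp1 removes its phosphate. Sphk2 averaged 21.1 ± 1.20 CPM in set 3+6, 21.0 ± 2.77 CPM in set 2+5 and 20.8 ± 0.814 CPM in set 1+4 (SD, n = 6 each). Sgpp1 averaged 29.1 ± 1.12, 29.2 ± 2.49 and 29.8 ± 1.53 CPM in the same order. The intervals of the log2 fold change for set 2+5 against set 1+4 were -0.16 to 0.09 for Sphk2 and -0.14 to 0.05 for Sgpp1. Sphk1 lay near 1 CPM or below, and its interval of -0.30 to 0.51 in that comparison was too wide to place it. Of Sphk2's exon bases 12.96% lie opposite Dbp and 8.97% opposite Rpl18, so its counts may hold their reads.

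**Figure D4:**
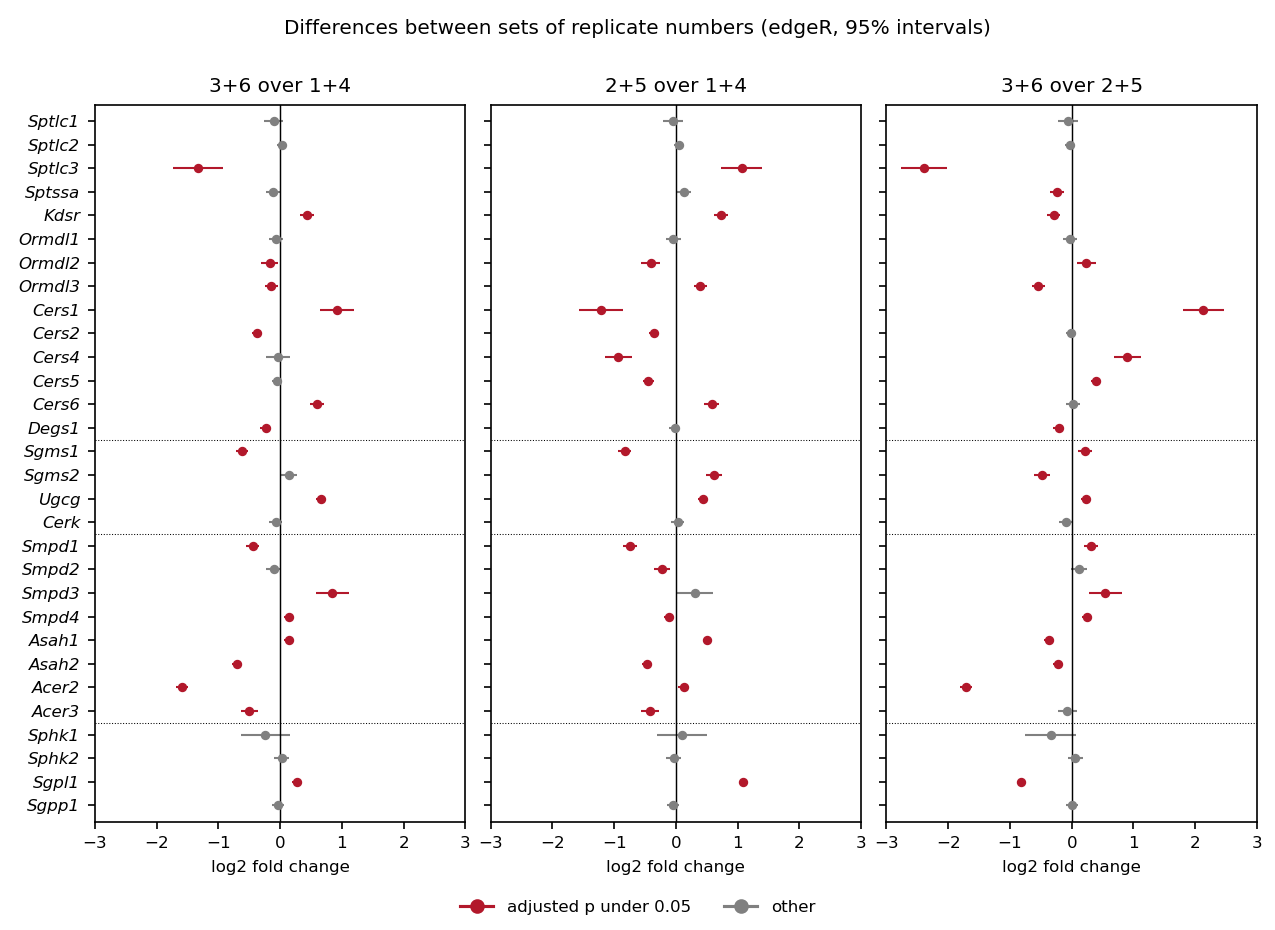
Log2 fold changes of the 30 genes between sets of replicate numbers with 95% intervals from edgeR, one panel per comparison, and red for an adjusted p under 0.05. The points of Sptlc1, Sptlc2, Ormdl1, Cerk, Sphk1, Sphk2 and Sgpp1 are grey in all 3 panels.

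Other genes of the pathway, in 7 lists of 45 genes of which 37 were tested, were called in both directions. They were 14 higher and 8 lower for set 3+6 against set 1+4 (30.2% and 29.5% of all genes), 10 higher and 11 lower for set 2+5 against set 1+4 (29.6% and 29.9% of all genes), and 21 higher and 8 lower for set 3+6 against set 2+5 (28.6% and 28.5% of all genes). Their median log2 fold changes were 0.09, 0.01 and 0.18, and those of all genes 0.0042, -0.0025 and 0.0012. The receptors of sphingosine phosphate that were tested, S1pr1, S1pr2 and S1pr3, were all higher in both other sets than in set 1+4, while S1pr4 had 0 counts in all libraries and S1pr5 fell below the filter. S1pr3 had 14.5, 16.7 and 19.8 CPM in set 3+6, 13.6, 14.7 and 16.6 CPM in set 2+5, and 6.48, 7.05 and 8.14 CPM in set 1+4. Set 1+4 lay below every other library. The log2 fold change of S1pr3 was 1.23 ± 0.07 for set 3+6 against set 1+4 (SE; adjusted p from edgeR = 1.20e-14) and 1.05 ± 0.07 for set 2+5 against set 1+4 (adjusted p from edgeR = 1.31e-12).

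S1pr2 had 14.9, 15.2 and 19.1 CPM in set 3+6, 8.78, 9.79 and 17.9 CPM in set 2+5, and 6.30, 7.90 and 8.37 CPM in set 1+4, again with set 1+4 below every other library. Its log2 fold change was 1.07 ± 0.10 for set 3+6 (SE; adjusted p from edgeR = 2.29e-09) and 0.45 ± 0.11 for set 2+5 (adjusted p from edgeR = 0.00107), each against set 1+4. S1pr1 had log2 fold changes of 0.76 ± 0.06 (SE; adjusted p from edgeR = 6.85e-11) and 0.61 ± 0.07 (adjusted p from edgeR = 1.34e-08) in those comparisons. The 10 preadipocyte and fibroblast markers, mostly Col1a1, summed to medians of 1101, 697 and 565 CPM in sets 3+6, 2+5 and 1+4. This sum moved in the same order as the median levels of S1pr2, S1pr3 and S1pr1 (18.6, 16.9 and 10.8 CPM for S1pr1). Its part in these differences was not tested.

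Nsmaf, an adaptor that couples a tumour necrosis factor receptor to neutral sphingomyelinase, stood at 24.5, 25.3 and 26.7 CPM in set 3+6, 40.8, 43.9 and 48.3 CPM in set 2+5, and 22.9, 23.7 and 24.9 CPM in set 1+4. Set 2+5 lay above all other libraries, by a log2 fold change of 0.88 ± 0.04 over set 1+4 (SE; adjusted p from edgeR = 1.29e-15). St3gal5, which makes the ganglioside GM3 from lactosylceramide, was lower in set 2+5, with 8.80, 10.5 and 11.9 CPM, than in set 1+4, with 15.8, 16.5 and 17.4 CPM, and the ranges did not overlap (log2 fold change -0.71 ± 0.06 SE; adjusted p from edgeR = 1.98e-10). Hacl1, a lyase of hydroxylated acyl chains, was lower in set 3+6 than in set 2+5 by a log2 fold change of -0.59 ± 0.07 (SE; adjusted p from edgeR = 1.16e-08). Ppap2c, a lipid phosphate phosphatase, was higher in set 3+6 than in set 1+4 by 0.52 ± 0.08 (SE; adjusted p from edgeR = 9.63e-07).

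The differences between sets were then compared between the lower and the higher number of each set, that is between numbers 1 to 3 and numbers 4 to 6. In edgeR's test of that interaction, 0.0338% of all genes passed for set 3+6 against set 1+4, 0.00676% for set 2+5 against set 1+4 and 0.00676% for set 3+6 against set 2+5. Of the 30 sphingolipid genes 0 passed in each, with 5, 1 and 2 at an unadjusted p under 0.05 (16.7%, 3.33% and 6.67%). Of all genes 10.2%, 3.07% and 9.38% had such a p, and nothing is read from counts this small. The interaction with the lowest p was that of Ormdl3 for set 3+6 against set 1+4, at -0.27 ± 0.09 on the log2 scale (SE; adjusted p from edgeR = 0.294). Of the 57 calls made for these genes in the 3 comparisons, 54 kept their direction and passed when counts were summed per replicate number, and the other 3 kept their direction.

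Comparisons of labelled times ask how transcripts respond to norepinephrine only if the time labels hold, which was not tested. EdgeR called 0 of the 30 genes for 4 h against 0 h, 24 h against 0 h or 24 h against 4 h. Of all genes 0% were called in each. At an unadjusted p under 0.05 there were 0 sphingolipid genes in each comparison with edgeR, and 1.17%, 1.07% and 0.926% of all genes. DESeq2 and limma-voom called 0 sphingolipid genes as well, with 1, 0 and 0 and with 0, 0 and 0 at an unadjusted p under 0.05. With the replicate number as a block, 0 of the 30 genes were called in each comparison, where 0%, 0.00676% and 0% of all genes were. In the order given, 5, 2 and 1 of the 30 had an unadjusted p under 0.05 (16.7%, 6.67% and 3.33%). Of all genes 9.88%, 7.81% and 5.12% had such a p, and nothing is read from counts this small.

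With the block, the 95% intervals of 28 of the 30 genes at 4 h against 0 h, and of 29 at 24 h against 0 h, lay within 0.5 of 0 on the log2 scale. The widest reach was that of Smpd3, with an upper bound of 0.63 at 4 h and 0.52 at 24 h. Without the block these counts were 22 and 23 genes, and Sptlc3 and Cers1 had the widest intervals. With the block, the lowest unadjusted p of the 3 comparisons belonged to Acer2 at 24 h against 0 h. Its level was 18.03, 54.9 and 62.0 CPM at 0 h, 17.4, 53.8 and 58.9 CPM at 4 h, and 14.3, 50.9 and 58.2 CPM at 24 h. The ranges overlapped nearly whole, and each time holds libraries of all sets. Within replicate numbers 24 h was below 0 h for Acer2 in 6 of 6 numbers, by a log2 difference of -0.15 ± 0.12 (SD, n = 6), and the model with the block put it at -0.14 ± 0.04 (SE; adjusted p from edgeR = 0.322).

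Smpd3 had 1.73, 2.05 and 3.38 CPM at 0 h, 2.30, 2.76 and 5.25 CPM at 4 h, and 1.80, 2.76 and 3.77 CPM at 24 h, with overlapping ranges. Its blocked log2 fold change was 0.37 ± 0.13 at 4 h against 0 h (SE; adjusted p from edgeR = 0.362), and 6 of 6 numbers had more of it at 24 h than at 0 h, by 0.26 ± 0.18 (SD, n = 6). For Cers5 and Sptlc2, 4 h exceeded 0 h in 6 of 6 numbers, by 0.06 ± 0.06 and 0.08 ± 0.06 (SD, n = 6 each). Acer2 was also lower in 6 of 6 numbers at 4 h than at 0 h, by a log2 difference of -0.05 ± 0.06, and at 24 h than at 4 h, by -0.10 ± 0.10 (SD, n = 6 each). For Ormdl2, 24 h exceeded 4 h in 6 of 6 numbers, by 0.14 ± 0.08 (SD, n = 6). In all, 2 of the 30 genes were higher and 1 lower in every number at 4 h against 0 h, where 3.53% and 3.12% of all genes were. At 24 h against 0 h there was 1 each way (2.55% and 1.97% of all genes), and at 24 h against 4 h 1 each way (1.37% and 2.17% of all genes), and nothing is read from counts this small. None of these passed the adjustment, and a p that misses the threshold does not show that levels were equal.

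**Figure D5:**
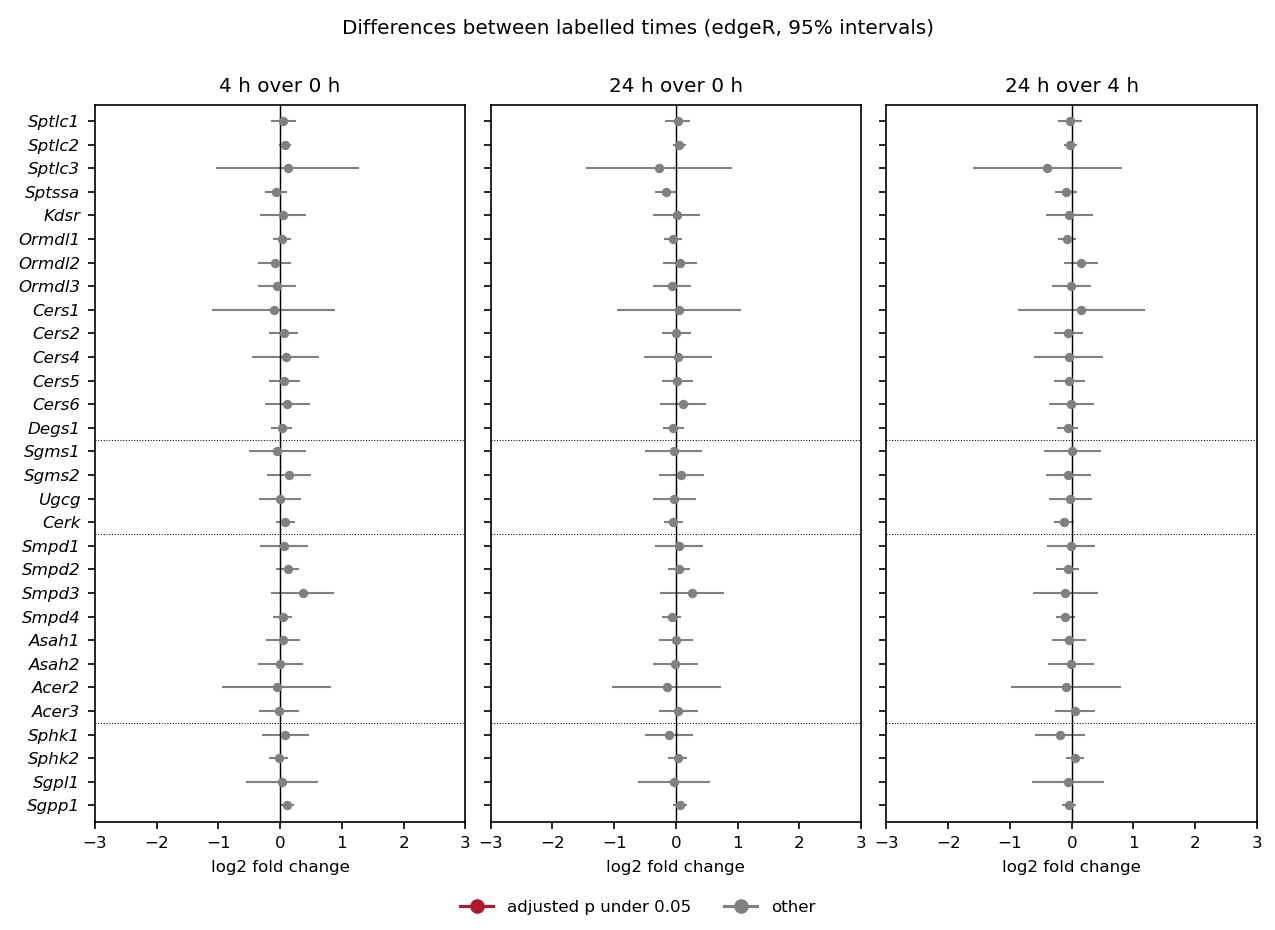
Log2 fold changes of the 30 genes between labelled times with 95% intervals from edgeR without a block, one panel per comparison, on the same axis range as for the sets. All 30 points are grey and near 0, and the intervals are widest for Sptlc3 and Cers1.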

How the data were processed

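Values were expected counts for each gene from salmon, deposited by the authors as 1 merged table of 18 libraries, per the labels. Per the submitters' processing notes the build was mm10 and the tools included limma and edgeR. For salmon, neither version, annotation nor strand setting is stated in the sources used here. Positions came from GENCODE M21 (mm10), which held 45143 of the 45706 gene identifiers, and sequences from RefSeq (GRCm38.p6), where 31 of the 33 genes had an entry.

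Expected counts were rounded, filtered with edgeR's filterByExpr (minimum count 10, minimum total 15) to 14788 genes and normalised by TMM, the trimmed mean of M values. CPM use the scaled totals, and log2 CPM a prior count of 2. Depths and totals set counting precision only. Tests were edgeR's robust quasi-likelihood F-test, two-sided, over all 18 libraries, with Benjamini-Hochberg adjustment over all genes tested and a threshold of 0.05. Comparisons of labelled times had time alone in the model, and comparisons of sets had set and time. Levels per kilobase divide CPM by the summed length of merged exons. SE is that of a log2 fold change, and intervals are 95% intervals. The tests of sets and of labelled times were checked on simulated counts, for set 2+5 against set 1+4 and for 4 h against 0 h. The counts simulated for the times held no difference between sets, unlike the data. The replicate block and the interaction were not simulated.

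All 33 members were named, and of the other pathway genes up to 4 per comparison of sets, those called with the largest change at a mean log2 CPM of at least 3. S1pr4 and S1pr5 are named beside them as the untested members of their list. The members, lists, sets and tests were chosen with earlier results of these data known, so patterns in them are no independent support.

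Pairing by replicate number was checked, but the check cannot tell a shared number from a shared set. Same-numbered libraries of different times, 18 pairs, had deviations from their labelled-time means that correlated at 0.297 to 0.718, and the bound was 0.1. Their median was 0.590. Numbers 3 apart, which share a set, had a median of 0.569 (0.237 to 0.688) and other numbers -0.270. The numbers come from the titles alone. Pairs of libraries of a set differed by more than counting noise (chi-square of 3.29 to 728 per degree of freedom), so none was merged. Alternatives covered scaling, filter, DESeq2, limma-voom, the replicate block, a block for numbers 1 to 3 and 4 to 6, single times, counts summed per number and each library left out. Python 3.11.15 ran with pandas 2.3.3, scipy 1.17.1, numpy 2.4.6 and matplotlib 3.10.9, and R 4.3.3 with DESeq2 1.42.0, limma 3.58.1 and edgeR 4.0.16.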

Additional observations from a re-analysis of the deposited data

Results flagged for a closer look

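Of 180 groups of 6 libraries tested by Dixon's criterion, 6 had 1 library far from the other 5. Of these 6 groups, 5 were groups by set. Chance gives about 1 in 20, but groups by labelled time mix the 3 sets, so that rate does not apply to them. The library of 24 h replicate 5 was the one set apart in 2 of the 6 groups. Its Sptlc3 level was 1.66 CPM, below the 3.51 to 4.68 CPM of the rest of set 2+5, and its Sptlc2 level was 50.4 CPM, above the 41.3 to 42.6 CPM of the other 24 h libraries. In set 3+6, the library of 24 h replicate 6 was lowest for Acer2, at 14.3 CPM against 17.4 to 19.0 CPM, and for Cers5, at 58.1 CPM against 63.8 to 67.1 CPM. In the same set, 0 h replicate 6 was highest for Ugcg, at 55.2 CPM against 51.5 to 52.8 CPM. In set 2+5, 4 h replicate 2 was highest for Cers2, at 157 CPM against 133 to 140 CPM.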

How the results depend on the processing

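Of the 57 calls of sphingolipid genes between sets, all 57 passed in the same direction with DESeq2, limma-voom, DESeq2 size factors, no filter, a filter of CPM of at least 1 in 6 libraries, and a block for numbers 1 to 3 and 4 to 6. Without a time term 56 did, the exception being Ormdl2 for set 3+6 against set 1+4. With counts summed per number 54 did, the exceptions being Smpd4 and Acer2 for set 2+5 against set 1+4 and Ormdl2 for set 3+6 against set 1+4. Leaving out each of the 18 libraries gave 1011 calls that passed and 15 that did not, all of Ormdl2, Ormdl3, Acer2 and Smpd4. Within labelled times, with 2 libraries a set, 54 passed at 0 h, 41 at 4 h and 39 at 24 h, and none turned. Genes called within 4 h were 4891 (set 3+6 against 1+4), 4873 (2+5 against 1+4) and 4392 (3+6 against 2+5, 12 of them sphingolipid genes), and within 24 h 4522, 3698 and 3414, with fewer libraries in each fit.

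With library totals and no scaling, 36 of the 57 calls passed, 17 did not and 4 turned: Ormdl3 for set 3+6 against 1+4 to 0.00671, and Asah2, Degs1 and Sptssa for set 3+6 against 2+5 to 0.0454, 0.0530 and 0.0202. Genes called were then 4536 (3404 higher, 1132 lower; 10 sphingolipid genes), 3788 (1348 higher, 2440 lower) and 5130 (4406 higher, 724 lower; 12 sphingolipid genes) in the order above. The cause was not tested.

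The replicate block called 1 gene at 24 h against 0 h and changed no other call between times. Leaving out 1 library gave 0 to 1 genes at 4 h against 0 h and at 24 h against 4 h, the 1 without 4 h replicate 3. Alternatives for the interaction of set with number were chosen after seeing the data. In the order above they gave 8, 42 and 4 genes with library totals, 20, 2 and 4 with no filter, and 1 and 0 for the first pair with the CPM filter. They gave 0 to 103, 0 to 2 and 0 to 44 with 1 library left out, the highest without 0 h replicate 3, 24 h replicate 3 and 0 h replicate 3. All gave 0 sphingolipid genes. Between sets, and between times with the replicate block, the widest intervals were those of Sptlc3, Cers1, Smpd3, Cers4 and Sphk1, the genes of low level. Between times without the block, those of Acer2 and Sgpl1, which are abundant, were wider than those of Cers4, Smpd3 and Sphk1.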
